A study of Mus musculus with 8 samples.

Results

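Pyruvate entry into mitochondria was followed through 10 genes of 32D cells, chosen by name from the 56748 genes of the deposited table. They are Mpc1 and Mpc2 for the mitochondrial pyruvate carrier, Pdha1, Pdhb and Dlat for catalytic subunits of the pyruvate dehydrogenase complex, Pdk1, Pdk2, Pdk3 and Pdk4 for the kinases that switch the complex off, and Pdp1 for a phosphatase that switches it on. Each name matched 1 row of the table, 8 of the 10 genes had reads in at least 1 library, and those 8 passed the filter on low values of 1 FPKM (fragments per kilobase and per 1e6 fragments) in at least 2 libraries. 32D is a mouse myeloid line that grows on interleukin-3 (IL-3). All cells had been transduced with murine Jak2, either Jak2WT or the Jak2V617F form that signals without a ligand. In each of these backgrounds, clones with both glucose transporters intact (GLUT1/3 WT) were set beside clones in which CRISPR-Cas9 had targeted Slc2a1 and Slc2a3, the genes of GLUT1 and GLUT3 (GLUT1/3 dKO). Cells were kept for 24 h in medium with 5 mM glucose, with glutamine at 1 mM and IL-3 at 2 ng/ml, before RNA was taken. Each of the 4 groups held 2 clones, numbered 1 and 3, each grown from a single cell. The paper states that the cells also went through single-cell dilution before editing. It lists the same size of GLUT1 deletion for all dKO clones of a background, so these clones may share an edited parent. Whether they do was not tested. A difference between groups and a difference between the clones picked for them cannot be told apart.

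Pyruvate made by glycolysis crosses the inner mitochondrial membrane through a carrier built of Mpc1 and Mpc2, and neither subunit transports it alone. Inside, the pyruvate dehydrogenase complex turns it into acetyl-CoA, with the E1 enzyme (Pdha1 and Pdhb) removing carbon dioxide, the E2 core (Dlat) passing on the acetyl group over a lipoic acid arm, and E3 (Dld) restoring that arm. The Pdk kinases phosphorylate Pdha1 and so divert pyruvate toward lactate, and the phosphatase Pdp1 reverses this. Pdk1 is well known as a target of the hypoxia-inducible factor HIF-1.

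Of the 10 genes, 9 had at least 1 promoter window in the RefSeq table of GRCm38.p6, with 12 windows in all, and each window matched the GRCm39 genome at 1 place. The 250 bases before each start were searched for ACGTG and GCGTG on both strands, the core letters of the site that HIF-1 binds, where ACGTG also forms part of the CACGTG box of other factors. These letters stood in 38.6% of all 32851 windows of that length, in 8 of the 12 windows here, and in at least 1 window of 8 of the 9 genes. The sequences are shown for Pdk1, Pdk3, Pdha1 and Pdhb, since these fell together in the Jak2V617F GLUT1/3 dKO clones, in GRCm39 coordinates and 5′ to 3′ on the strand of the gene. Each is shown up to at most 30 bases past the start of the GENCODE canonical transcript, and capitals mark the matches.
Pdk1, chr2:71703318-71703517, forward strand: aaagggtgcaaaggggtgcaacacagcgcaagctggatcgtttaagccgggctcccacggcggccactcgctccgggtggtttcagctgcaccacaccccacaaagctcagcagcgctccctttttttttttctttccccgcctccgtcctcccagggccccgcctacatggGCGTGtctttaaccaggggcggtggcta
Pdk3, chrX:92875898-92876006, reverse strand: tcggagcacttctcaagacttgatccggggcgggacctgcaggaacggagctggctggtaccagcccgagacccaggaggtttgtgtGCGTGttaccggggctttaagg
Pdha1, chrX:158921427-158921676, reverse strand: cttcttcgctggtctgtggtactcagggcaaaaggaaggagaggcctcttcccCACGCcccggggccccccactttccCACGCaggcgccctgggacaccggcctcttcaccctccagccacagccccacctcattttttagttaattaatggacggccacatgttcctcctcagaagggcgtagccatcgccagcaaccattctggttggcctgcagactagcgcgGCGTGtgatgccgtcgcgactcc
Pdhb, chr14:14296531-14296768, forward strand: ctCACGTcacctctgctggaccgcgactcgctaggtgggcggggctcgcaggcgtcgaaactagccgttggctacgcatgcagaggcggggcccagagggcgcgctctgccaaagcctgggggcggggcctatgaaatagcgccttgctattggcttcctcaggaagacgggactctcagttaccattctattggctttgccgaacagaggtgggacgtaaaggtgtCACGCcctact
The Pdk1 stretch holds 1 match, at 78 bases before the RefSeq start and so within the GENCODE canonical transcript, which starts at 80 bases before it. Pdk3 had 4 matches in its window, at 163, 104, 67 and 53 bases before its start, of which the first is shown, and 2.58% of all windows had at least 4. All 4 lie within the canonical Pdk3 transcript, which starts 171 bases before the RefSeq start. Pdha1 had 3 matches, all before its canonical start. Pdhb had 2, of which the one at 248 bases lies before the canonical start and the one at 23 bases lies past it. Pdk4, which had no reads in these libraries, had 1 match as well, and Dlat had none.

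The libraries had 16846011 to 48884329 reads on genes, recovered from the FPKM values, and in all 4 groups the clones differed beyond sampling noise. Slc2a1 lay between 44.7 and 64.0 FPKM in the GLUT1/3 WT libraries and between 9.17 and 17.3 in the dKO libraries, and Slc2a3 between 91.9 and 198 against 16.0 and 49.5. The Slc2a3 fall missed the threshold in Jak2WT (-1.71 on the log2 scale, limma adjusted p = 0.0612), and the other 3 falls passed it. These RNA levels do not show how much transporter protein was left. The paper reports complete loss of glucose uptake in the dKO clones of both backgrounds, measured apart from these libraries. The labelled cell type, a myeloblast-like line, was met by Spi1, Csf2rb and Prtn3, while Mpo, Elane and Ctsg were at most 0.203 FPKM in every library and Cebpa and Kit had no reads. Markers of other blood cells differed between groups. The summed FPKM of 7 erythroid markers was 94.0 to 112 in Jak2WT GLUT1/3 WT, 224 to 275 in Jak2WT GLUT1/3 dKO, 500.2 to 800.3 in Jak2V617F GLUT1/3 WT and 1141 to 2456 in Jak2V617F GLUT1/3 dKO, with the highest value in clone 1 of the last group. The sum of 3 megakaryocyte markers, most of it Itga2b, was 63.2 to 90.2 in the 4 Jak2WT libraries and 177.5 to 222 in the 4 Jak2V617F libraries. Cpa3, a mast cell protease gene, had 50.8 to 100.5 FPKM in Jak2WT and at most 1.67 in Jak2V617F libraries, while Gata2 of the same 4-gene list had 115.5 to 163 in all. The sums of 11 myeloid progenitor markers and of 3 macrophage markers were lowest in Jak2V617F GLUT1/3 dKO, at 89.1 to 91.95 and 21.9 to 26.4, against 159.8 to 247.5 and 52.2 to 72.9 in the other groups. Most of these sums was Csf2rb and Adgre1, which were lowest there, as were Spi1 and Ptprc. Il3ra, Prtn3 and Cd68 were not, at 7.99 to 8.89, 4.92 to 10.2 and 5.61 to 6.06 FPKM in that group. Lymphoid markers summed to at most 0.708. In bulk RNA, fewer cells of a type and less RNA per cell cannot be told apart. The part of these markers in the results given here was not tested.

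**Figure D1:**
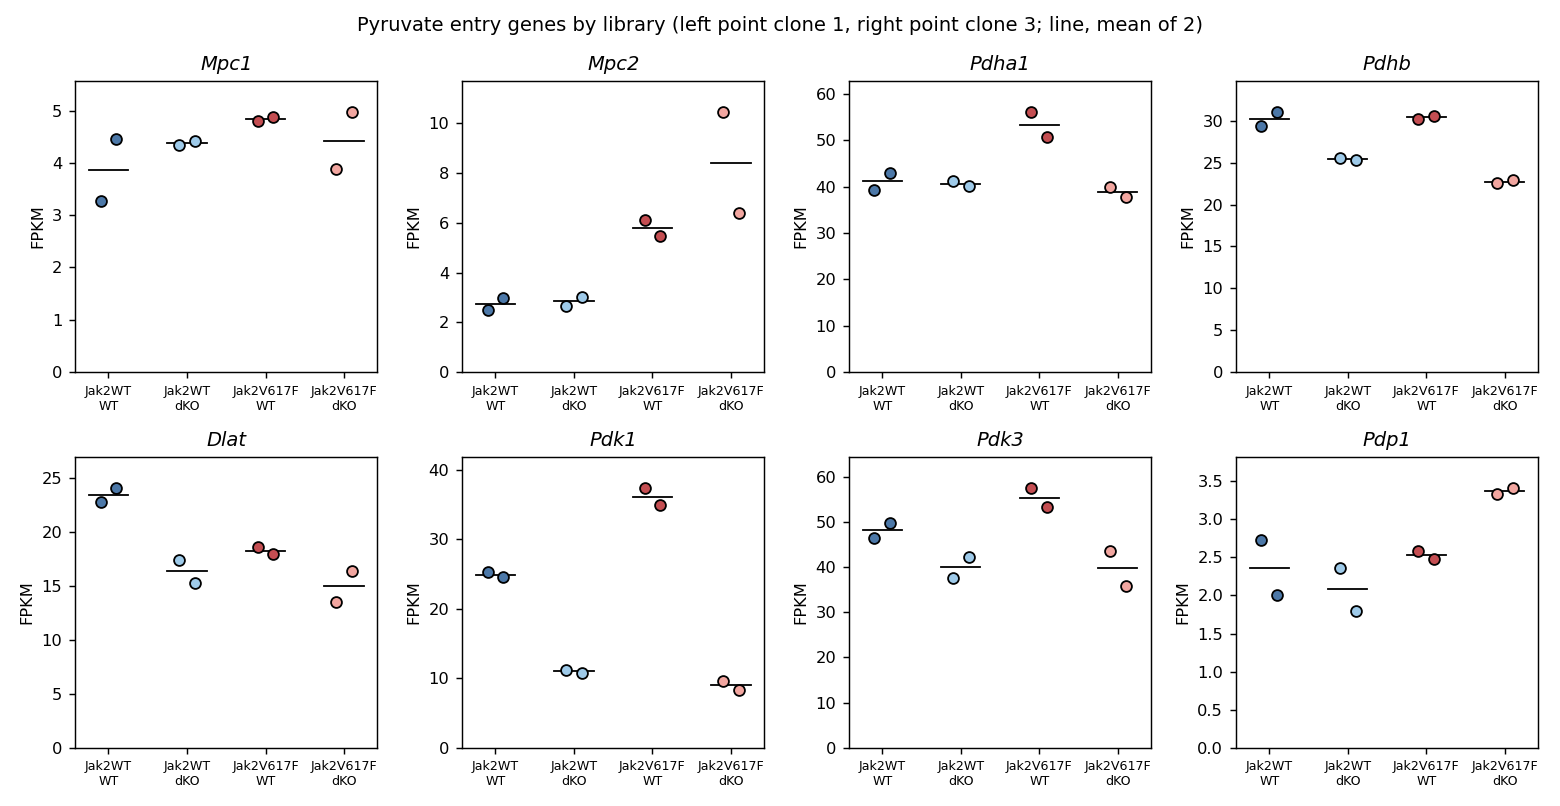
FPKM (vertical axes, from 0) of the 8 genes with reads, in the 2 clones of each group (points) with the mean of 2 (line). Pdk1 is low in all 4 dKO libraries, Mpc2 is high in all 4 Jak2V617F libraries, and the other genes move less.

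Pdk1 was the member that moved most after loss of GLUT1 and GLUT3, falling 2.27-fold in Jak2WT and 4.02-fold in Jak2V617F cells. In Jak2V617F cells Pdk3, Pdha1 and Pdhb passed the threshold with it, falling by 1.34-fold to 1.39-fold. In Jak2WT cells Dlat did, a call lost whichever of the compared libraries was left out. Short of the threshold, Pdk3 and Pdhb were 1.20-fold and 1.19-fold lower in Jak2WT dKO clones, and Dlat 1.22-fold lower in Jak2V617F dKO clones. For none of Pdk3, Pdha1, Pdhb and Dlat did the dKO effect differ between the backgrounds past the threshold. Between the backgrounds, Mpc2 was the member that differed most, at 2.12-fold higher in Jak2V617F than in Jak2WT cells with intact transporters and 2.95-fold higher among the dKO clones. Pdk2 and Pdk4 were listed at 0 in every library.

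All comparisons used limma on log2(FPKM + 1), with p-values adjusted over the 11818 genes that passed the filter and a threshold of 0.05. In Jak2WT cells, 2 of the 8 genes tested fell in the dKO clones and 0 rose, where 13.7% of all genes tested were called, and the median log2 fold change was -0.18 over the 8 genes and 0.01 over all genes. In Jak2V617F cells, 4 of 8 fell and 0 rose against 29.9% of all genes, with medians of -0.34 and -0.02. Among GLUT1/3 WT clones, 3 of 8 were higher in Jak2V617F and 0 lower against 30.3% of all genes, with medians of 0.24 and 0.01. Among dKO clones, 2 of 8 were higher in Jak2V617F and 0 lower against 17.1%, with medians of -0.04 and -0.02. The effect of the dKO differed between the backgrounds for 1 of 8 genes against 10.6% of all genes. Counting by an unadjusted p under 0.05 added 1 gene in each of the 5 comparisons, a lower one each time, and left every count of 0 higher at 0. By voom on the recovered reads, a method for counts, the counts were 0 higher and 3 lower, 1 higher and 4 lower, 3 higher and 1 lower, 2 higher and 0 lower, and 0 higher and 1 lower in that order. Comparisons that share a group share its 2 libraries and are not independent. The shares of all genes called are those of the limma fit on all 8 libraries, and they changed widely when single libraries were left out. For 1 gene in 2 clones against 2, the smallest two-sided p of an exact permutation test is 0.33. Smaller p-values therefore borrow the spread of other genes and groups.

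**Figure D2:**
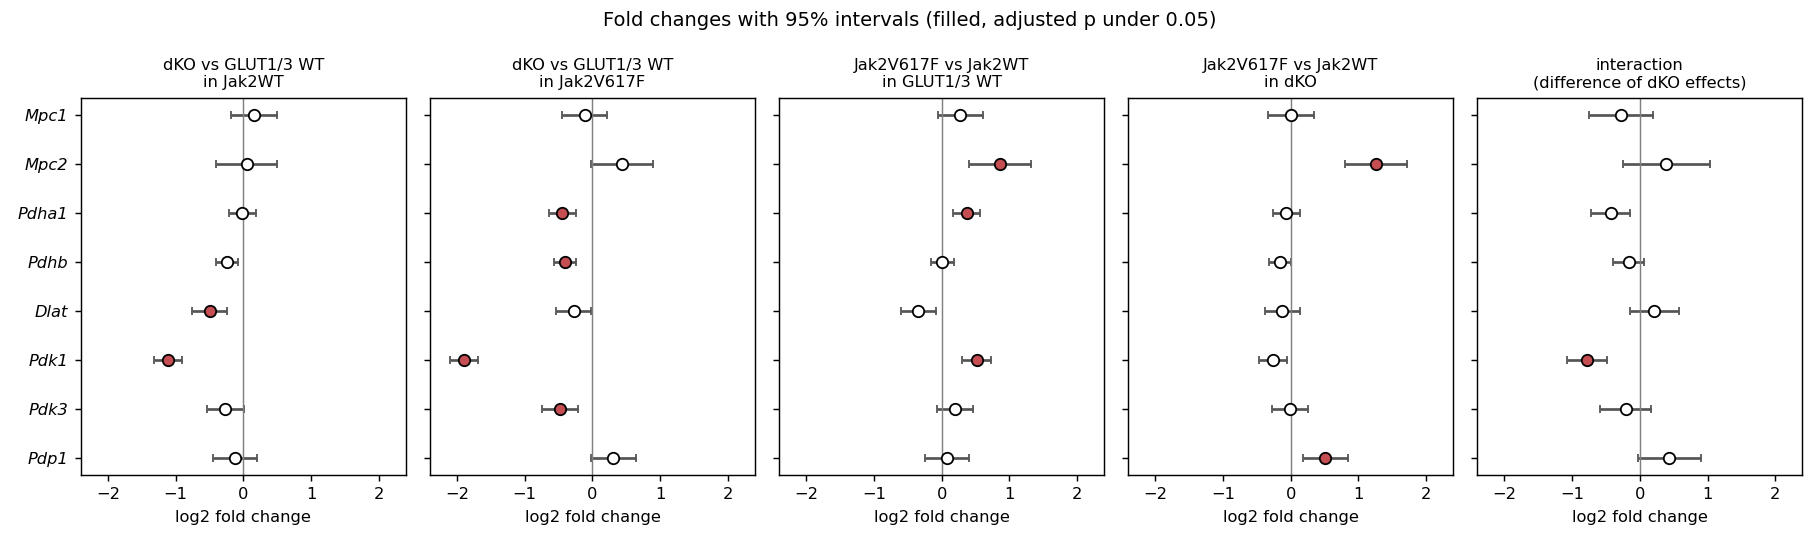
Log2 fold changes on the log2(FPKM + 1) scale (horizontal axes) of the 8 genes tested, with 95% intervals as bars, in the 4 comparisons and their interaction; filled points have an adjusted p under 0.05 over all genes. Pdk1 lies at -1.11 and -1.90 after the dKO, and Mpc2 lies to the right of 0 in both comparisons of the backgrounds.

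The carrier subunits behaved unlike each other. Mpc2 (ENSMUSG00000026568, chr1:165288206-165308783, forward strand) had 2.50 and 2.96 FPKM in clones 1 and 3 of Jak2WT GLUT1/3 WT, then 2.66 and 3.03 in Jak2WT GLUT1/3 dKO, 6.10 and 5.49 in Jak2V617F GLUT1/3 WT, and 10.4 and 6.38 in Jak2V617F GLUT1/3 dKO. All 4 Jak2V617F libraries lay above all 4 Jak2WT libraries, and Jak2V617F GLUT1/3 dKO clone 1 stood apart from the rest. On the log2 scale Mpc2 was higher in Jak2V617F by 0.87 (SE 0.19, limma adjusted p = 0.0148) among GLUT1/3 WT clones and by 1.26 (SE 0.19, adjusted p = 0.00646) among dKO clones. The first of these calls was lost without Jak2WT GLUT1/3 WT clone 1, without its clone 3 or without Jak2V617F GLUT1/3 WT clone 1, with adjusted p = 0.0831, 0.0521 and 0.0745 by limma, and with no filter on low values (adjusted p = 0.0627). The second was lost without Jak2WT GLUT1/3 dKO clone 1, at 1.19 with limma adjusted p = 0.0525, and was 0.94 without Jak2V617F GLUT1/3 dKO clone 1, where the call was kept. Within a background no dKO difference of Mpc2 passed the threshold by limma on all 8 libraries. It was 0.05 in Jak2WT, with a 95% interval from -0.41 to 0.50, and 0.44 in Jak2V617F, with an interval from -0.02 to 0.89. The latter was 0.12 without Jak2V617F GLUT1/3 dKO clone 1 and 0.75 without clone 3, where it passed the threshold with limma adjusted p = 0.00979. By voom on the recovered reads it passed as well, at 0.62 (adjusted p = 0.0363), and is the higher call that voom added. The library with the most Mpc2 was also the one with the highest erythroid sum. The megakaryocyte sum split the libraries by background as Mpc2 did, from 63.2 to 90.2 against 177.5 to 222, and its part in the Mpc2 difference was not tested. In Jak2WT the erythroid sum was higher in the dKO clones, and Mpc2 was 2.73 ± 0.327 FPKM in GLUT1/3 WT and 2.85 ± 0.261 in dKO clones (mean ± SD, n = 2 each). The part of the erythroid markers in the Mpc2 levels was not tested either.

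The gene Dcaf6, which encodes a substrate receptor of a ubiquitin ligase, is listed 161 bases before Mpc2 on the opposite strand, so that both are transcribed away from each other. In the GENCODE annotation, the genes overlap by 1432 bases at their starts. Dcaf6 was named here after its values were seen. Its levels were 8.91 and 9.30 FPKM in Jak2WT GLUT1/3 WT, then 8.42 and 9.92 in Jak2WT GLUT1/3 dKO, 28.5 and 28.4 in Jak2V617F GLUT1/3 WT, and 31.6 and 23.1 in Jak2V617F GLUT1/3 dKO. It was thus higher in every Jak2V617F library, by 1.54 on the log2 scale among GLUT1/3 WT clones (SE 0.14, limma adjusted p = 0.000746) and by 1.47 among dKO clones (SE 0.14, limma adjusted p = 0.00126). Transcripts annotated to Dcaf6 in GENCODE share 265 words of 50 bases with the canonical Mpc2 transcript, and the strand setting of the counting is not given in the sources used here. The share of Mpc2 reads that stem from Dcaf6 was not tested. Of the 10 genes tested whose listed start lies within 500000 bases of that of Mpc2, Dcaf6 included, 5 were higher and 1 lower in Jak2V617F GLUT1/3 WT than in Jak2WT GLUT1/3 WT, where 30.3% of all genes tested were called. Rcsd1 was the lower one, at -1.30 on the log2 scale (SE 0.13, limma adjusted p = 0.00107).

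Mpc1 (ENSMUSG00000023861, chr17:8501736-8516493, forward strand) had 3.26 and 4.46 FPKM in Jak2WT GLUT1/3 WT, then 4.34 and 4.42 in Jak2WT GLUT1/3 dKO, 4.80 and 4.88 in Jak2V617F GLUT1/3 WT, and 3.88 and 4.97 in Jak2V617F GLUT1/3 dKO. Its range over the group means, 0.28 on the log2 scale, was the smallest of the 8 genes, and 19.1% of all genes tested had a smaller one. It passed the threshold in no comparison, and its log2 differences lay between -0.11 and 0.28 for the pairs of groups, with intervals that reached from -0.45 to 0.61. The Mpc1 value rests on few reads, 161 to 454 a library, and on a gene with a processed copy. Mpc1-ps, on chromosome 12 from 110824999 to 110825328, shares 212 words of 50 bases with the canonical Mpc1 transcript and held 224 to 684 reads, more than Mpc1 itself in every library. Mpc1 took 33.4 to 42.2% of the reads summed over the pair, and the level of Mpc1 is uncertain for this reason. Per 1e6 reads on genes, the sum was 21.5 to 26.6 over the 8 libraries.

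The ratio of Mpc1 to Mpc2 in FPKM was 1.41 ± 0.141 in Jak2WT GLUT1/3 WT, 1.54 ± 0.120 in Jak2WT GLUT1/3 dKO, but 0.839 ± 0.0727 in Jak2V617F GLUT1/3 WT and 0.576 ± 0.288 in Jak2V617F GLUT1/3 dKO (mean ± SD, n = 2 each). The low mean of the last group rests on clone 1, at 0.372, while clone 3, at 0.780, lay close to the 0.787 and 0.890 of Jak2V617F GLUT1/3 WT. Whether Mpc1 or Mpc2 is the more abundant depends on the gene length used. The table divides Mpc2 by 7344 bases, 5.28 times the 1390 bases of its canonical spliced transcript, and Mpc1 by 2082 bases, 1.85 times its 1128. Per canonical length, a choice made after seeing the data, the ratio was 0.491 ± 0.0493 in Jak2WT GLUT1/3 WT, 0.539 ± 0.0419 in Jak2WT GLUT1/3 dKO, 0.293 ± 0.0254 in Jak2V617F GLUT1/3 WT and 0.201 ± 0.101 in Jak2V617F GLUT1/3 dKO (mean ± SD, n = 2 each). Mpc2 was then the higher of the pair in all 4 groups. The order of the groups is the same on any length, since a length divides every library alike.

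**Figure D3:**
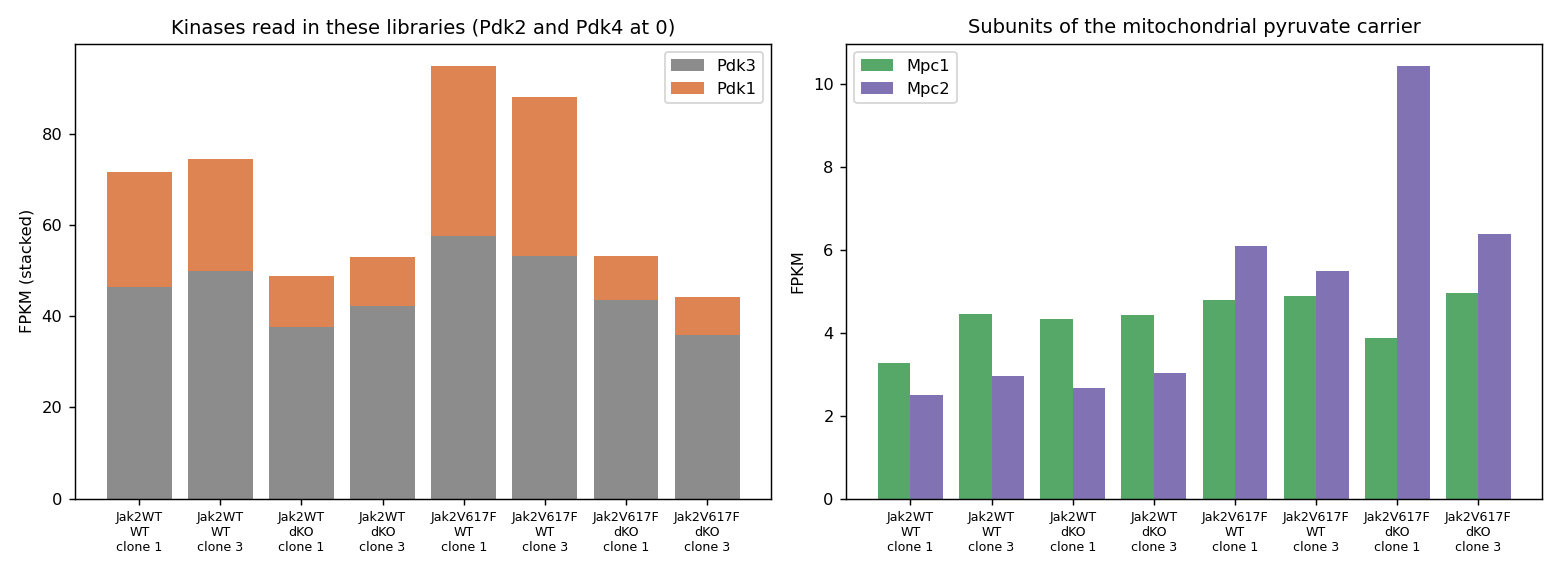
Left, FPKM of Pdk3 and Pdk1 stacked, per library; right, FPKM of Mpc1 and Mpc2 per library, both axes from 0. The Pdk1 part of the kinase stack is smallest in the 4 dKO libraries, and Mpc2 exceeds Mpc1 in the 4 Jak2V617F libraries on this scale.

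Among the subunits of the pyruvate dehydrogenase complex, both E1 subunits fell after the dKO in Jak2V617F cells. Pdha1 (ENSMUSG00000031299, chrX:158905205-158921409, reverse strand), the subunit that the kinases phosphorylate, had 39.4 and 42.9 FPKM in Jak2WT GLUT1/3 WT, then 41.2 and 40.2 in Jak2WT GLUT1/3 dKO, 56.1 and 50.7 in Jak2V617F GLUT1/3 WT, and 39.95 and 37.9 in Jak2V617F GLUT1/3 dKO. Jak2V617F GLUT1/3 WT was above the other 3 groups, which overlapped or lay close to each other. Pdha1 was higher in Jak2V617F than in Jak2WT GLUT1/3 WT clones by 0.37 on the log2 scale (SE 0.09, limma adjusted p = 0.0173), and it fell by 0.44 in the Jak2V617F dKO clones (SE 0.09, limma adjusted p = 0.00908). In Jak2WT the difference was -0.01, with an interval from -0.22 to 0.19, and the dKO effects of the backgrounds differed by -0.43 without passing the threshold (limma adjusted p = 0.0642). The higher level in Jak2V617F lost its call without either Jak2WT GLUT1/3 WT clone or without Jak2V617F GLUT1/3 WT clone 1 (limma adjusted p = 0.118, 0.0555 and 0.0801). The fall missed the threshold where only the 2 groups compared were fitted (adjusted p = 0.0531).

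Pdhb (ENSMUSG00000021748, chr14:14296748-14303777, forward strand), the other E1 subunit, had 29.4 and 31.0 FPKM in Jak2WT GLUT1/3 WT, then 25.5 and 25.3 in Jak2WT GLUT1/3 dKO, 30.3 and 30.6 in Jak2V617F GLUT1/3 WT, and 22.6 and 22.9 in Jak2V617F GLUT1/3 dKO. Both dKO groups lay below both GLUT1/3 WT groups. It fell by 0.40 on the log2 scale in Jak2V617F (SE 0.07, limma adjusted p = 0.00613), a call that held in every alternative. In Jak2WT its difference was -0.24 (SE 0.07, limma adjusted p = 0.0645), and passed the threshold only with the libraries scaled to the same total, scaled by median ratio or tested by voom on the recovered reads (adjusted p = 0.0211, 0.0455 and 0.0219). With intact transporters the difference between the backgrounds was 0.01, with an interval from -0.15 to 0.18.

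The E2 core gene Dlat (ENSMUSG00000000168, chr9:50545933-50571080, reverse strand) had 22.8 and 24.1 FPKM in Jak2WT GLUT1/3 WT, then 17.4 and 15.3 in Jak2WT GLUT1/3 dKO, 18.6 and 18.0 in Jak2V617F GLUT1/3 WT, and 13.5 and 16.4 in Jak2V617F GLUT1/3 dKO. Jak2WT GLUT1/3 WT was the high group, in contrast to Pdha1, and all other libraries lay below it. Dlat fell by 0.49 on the log2 scale in the Jak2WT dKO clones (SE 0.11, limma adjusted p = 0.0286). That call was lost without any 1 of the 4 libraries compared, Jak2WT GLUT1/3 WT clones 1 and 3 and Jak2WT GLUT1/3 dKO clones 1 and 3, with limma adjusted p = 0.123, 0.154, 0.0798 and 0.141, and with no filter (adjusted p = 0.0786). In Jak2V617F the dKO difference was -0.28 (limma adjusted p = 0.0937), and it was called without Jak2V617F GLUT1/3 dKO clone 3 (adjusted p = 0.0357). Jak2V617F GLUT1/3 WT differed from Jak2WT GLUT1/3 WT by -0.34 (limma adjusted p = 0.0521). This passed the threshold in 7 of the 18 alternatives, the scaled libraries and voom among them.

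The ratio of Pdha1 to Pdhb was 1.36 ± 0.0289 in Jak2WT GLUT1/3 WT, 1.60 ± 0.0216 in Jak2WT GLUT1/3 dKO, 1.76 ± 0.138 in Jak2V617F GLUT1/3 WT and 1.71 ± 0.0840 in Jak2V617F GLUT1/3 dKO, in FPKM (mean ± SD, n = 2 each). The lowest group stood apart from the other 3. Per canonical length the ratio ran from 0.6996 in Jak2WT GLUT1/3 WT to 0.902 in Jak2V617F GLUT1/3 WT, so the order of Pdha1 and Pdhb, too, depended on the length used. Pdhb has a processed copy, Gm6123, with at most 35 reads a library beside 2079 to 4823 on Pdhb. Pdhb also shares 289 words of 50 bases with its neighbour Pxk, which held 178 to 708 reads. Pdha1 overlaps Map3k15 on the opposite strand, which was at most 0.201 FPKM.

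The kinases were read from Pdk1 and Pdk3. Pdk1 (ENSMUSG00000006494, chr2:71703568-71734202, forward strand) had 25.3 and 24.6 FPKM in Jak2WT GLUT1/3 WT, then 11.3 and 10.7 in Jak2WT GLUT1/3 dKO, 37.4 and 34.9 in Jak2V617F GLUT1/3 WT, and 9.66 and 8.34 in Jak2V617F GLUT1/3 dKO. No 2 groups overlapped, and Jak2V617F was the higher background among GLUT1/3 WT clones and the lower among dKO clones. On the log2 scale Pdk1 fell by 1.11 in Jak2WT (SE 0.09, 95% interval -1.32 to -0.90, limma adjusted p = 0.00165) and by 1.90 in Jak2V617F (SE 0.09, interval -2.11 to -1.69, limma adjusted p = 0.000306). Both falls were called in each of the 18 alternatives, with values from -1.25 to -1.08 and from -1.997 to -1.80. Among GLUT1/3 WT clones Pdk1 was higher in Jak2V617F by 0.52 (SE 0.09, limma adjusted p = 0.00588), which was also called in every alternative, and among dKO clones the difference was -0.26 (limma adjusted p = 0.0892). The fall was larger in Jak2V617F than in Jak2WT (interaction -0.78, SE 0.13, interval -1.08 to -0.48, limma adjusted p = 0.0171). Without Jak2WT GLUT1/3 WT clone 1 or 3, Jak2WT GLUT1/3 dKO clone 1 or Jak2V617F GLUT1/3 WT clone 1 the interaction missed the threshold, with limma adjusted p = 0.0686, 0.0793, 0.0757 and 0.0526. Over all 8 left-out libraries its size ran from -0.88 to -0.69.

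Pdk3 (ENSMUSG00000035232, chrX:92808213-92875807, reverse strand), another kinase of the same subunit, was the more abundant per listed length. It had 46.5 and 49.9 FPKM in Jak2WT GLUT1/3 WT, then 37.6 and 42.3 in Jak2WT GLUT1/3 dKO, 57.6 and 53.3 in Jak2V617F GLUT1/3 WT, and 43.6 and 35.9 in Jak2V617F GLUT1/3 dKO. The dKO groups overlapped each other and lay below both GLUT1/3 WT groups. Pdk3 fell by 0.48 on the log2 scale in Jak2V617F (SE 0.11, limma adjusted p = 0.0199). This missed the threshold without Jak2V617F GLUT1/3 WT clone 1 or Jak2V617F GLUT1/3 dKO clone 3 (limma adjusted p = 0.0922 and 0.0733), with no filter (adjusted p = 0.0557) and with only the compared groups in the fit (adjusted p = 0.0739). In Jak2WT the difference was -0.26, with an interval from -0.53 to 0.004. Between the backgrounds it was 0.20 among GLUT1/3 WT clones and -0.01 among dKO clones, and none of these passed the threshold.

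The summed FPKM of the kinases was 73.1 ± 1.94 in Jak2WT GLUT1/3 WT, 51.0 ± 2.92 in Jak2WT GLUT1/3 dKO, 91.6 ± 4.83 in Jak2V617F GLUT1/3 WT and 48.7 ± 6.43 in Jak2V617F GLUT1/3 dKO (mean ± SD, n = 2 each). Pdk1 made up 34.1 ± 1.56% of this sum in Jak2WT GLUT1/3 WT, 21.6 ± 2.01% in Jak2WT GLUT1/3 dKO, 39.5 ± 0.143% in Jak2V617F GLUT1/3 WT and 18.5 ± 0.527% in Jak2V617F GLUT1/3 dKO, and Pdk3 made up the rest. Per canonical length, chosen after seeing the data, Pdk1 held 42.4 ± 1.70%, 28.1 ± 2.39%, 48.1 ± 0.150% and 24.4 ± 0.644% in the same order of groups. Pdk3 had the larger share on both scales, and the order of the groups cannot change with the length. Pdk2 (ENSMUSG00000038967, chr11:94917084-94932180, reverse strand) and Pdk4 (ENSMUSG00000019577, chr6:5483351-5496309, reverse strand) were listed at 0 reads in all 8 libraries, where a count of 0 allows up to 0.0192 to 0.0547 FPKM for Pdk2 and 0.0173 to 0.0492 FPKM for Pdk4 at 3 reads, for counting error only. A listed 0 was common in the table, with 7012 of 21970 protein-coding genes at 0 in all libraries. Pdk4, which is known to rise in fasting and with fatty acid use, had no reads in the dKO clones either.

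Pdp1 (ENSMUSG00000049225, chr4:11958184-11966452, reverse strand), the phosphatase that restores activity, was low in all groups. It had 2.72 and 2.01 FPKM in Jak2WT GLUT1/3 WT, then 2.36 and 1.80 in Jak2WT GLUT1/3 dKO, 2.59 and 2.48 in Jak2V617F GLUT1/3 WT, and 3.34 and 3.41 in Jak2V617F GLUT1/3 dKO. The last group lay above all other libraries, the Jak2WT groups overlapped, and Jak2V617F GLUT1/3 WT lay within the range of Jak2WT GLUT1/3 WT. Among dKO clones Pdp1 was higher in Jak2V617F by 0.51 on the log2 scale (SE 0.14, limma adjusted p = 0.0460). This call was lost without any 1 of the 8 libraries, with values from 0.38 to 0.64 and adjusted p up to 0.211 without Jak2WT GLUT1/3 dKO clone 3. It was also lost with a pseudocount of 0.1, with no filter and with only the compared groups in the fit. After the dKO in Jak2V617F the difference was 0.31, with an interval from -0.02 to 0.64.

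Over the 8 libraries, the levels of Pdk1 on the log2 scale followed those of Pdhb with r = 0.94 and of Pdk3 with r = 0.92, the closest pairs among the members, while Dlat and Mpc2 ran most opposite, with r = -0.64. The genes whose pattern was most like that of Pdk1 among all tested were Plod1, Rgs18, Hmox1, Npepps and Orc5, with Pearson r from 0.989 to 0.997 over the 8 libraries. For Mpc2 they were Gm43661, Rsbn1l, Cylc1, Frmd4a and Mbnl1, with r from 0.984 to 0.989, and for Dlat Arhgap9, Gm10961, Ndst1, Tns4 and Prcc, with r from 0.973 to 0.984. The 8 libraries fall into 4 groups, so these correlations describe the group pattern and carry no test. The range of group means was 1.90 for Pdk1 and 1.30 for Mpc2 on the log2 scale, larger than in 97.4% and 92.9% of all genes tested, and 0.62 or less for the other members.

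Of the 4 other parts of the complex that were tested, 1 was higher and 1 lower in Jak2V617F among GLUT1/3 WT clones, against 30.3% of all genes, and 1 fell after the dKO in Jak2V617F, against 29.9%. Dld, the E3 subunit that the complex shares with its sister dehydrogenases, had 57.5 ± 5.25 FPKM in Jak2WT GLUT1/3 WT, 49.9 ± 0.900 in Jak2WT GLUT1/3 dKO, 81.8 ± 1.79 in Jak2V617F GLUT1/3 WT and 56.2 ± 1.11 in Jak2V617F GLUT1/3 dKO (mean ± SD, n = 2 each). It was higher in Jak2V617F GLUT1/3 WT by 0.50 on the log2 scale (SE 0.08, limma adjusted p = 0.00529) and fell by 0.53 in the Jak2V617F dKO clones (SE 0.08, limma adjusted p = 0.00429). Pdp2, the second phosphatase, was lower in Jak2V617F among GLUT1/3 WT clones, at -0.30 (SE 0.08, limma adjusted p = 0.0324). Pdhx, which anchors E3 to the core, and Pdpr, which regulates the phosphatase, passed the threshold in no comparison by limma. By voom on the recovered reads Pdpr was called 3 times, at -0.50 after the dKO in Jak2WT (adjusted p = 0.0135), at -0.41 between GLUT1/3 WT clones (adjusted p = 0.0234) and at 0.66 in the interaction (adjusted p = 0.0258). Voom also called Pdp2 higher after the dKO in Jak2V617F, at 0.34 (adjusted p = 0.0242). Pdha2 had no reads, and Mpc1l matched no row.

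**Figure D4:**
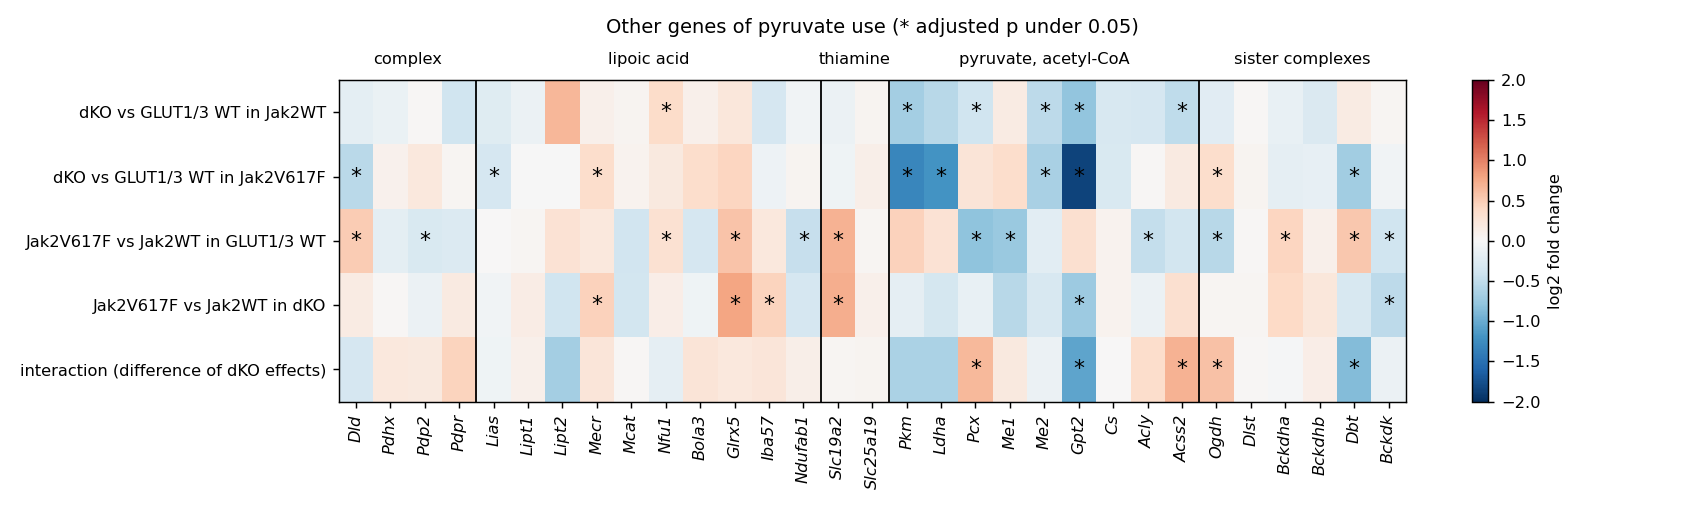
Log2 fold change (colour) of tested genes from 5 lists around pyruvate use (columns) in the 4 comparisons and the interaction (rows), with an asterisk where the adjusted p over all genes was under 0.05. The darkest blue cell is Gpt2 after the dKO in Jak2V617F, at -1.85.

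Other routes into and out of pyruvate and acetyl-CoA were read from 9 tested genes of 12 listed. After the dKO 5 fell and 0 rose in Jak2WT, against 13.7% of all genes called, with a median log2 fold change of -0.51 over the list and 0.01 over all genes. In Jak2V617F 4 fell and 0 rose, against 29.9% of all genes, with medians of -0.31 and -0.02. By an unadjusted p under 0.05 the counts were 8 lower and 0 higher and 5 lower and 1 higher, and by voom 8 lower and 0 higher and 4 lower and 1 higher. Gpt2, the mitochondrial enzyme that makes pyruvate from alanine and the reverse, fell by 0.79 in Jak2WT (SE 0.13, limma adjusted p = 0.0118) and by 1.85 in Jak2V617F (SE 0.13, limma adjusted p = 0.000383), a larger fall in Jak2V617F by the interaction (-1.06, SE 0.18, limma adjusted p = 0.0182). Pkm, the last enzyme of glycolysis, fell by 0.68 (SE 0.15, adjusted p = 0.0270 by limma) and by 1.31 (SE 0.15, adjusted p = 0.00126). Among GLUT1/3 WT clones 3 were lower in Jak2V617F by limma, near the 30.3% of all genes called, led by Pcx, which makes oxaloacetate from pyruvate, at -0.80 (SE 0.09, limma adjusted p = 0.00119), and by Me1 at -0.74 (limma adjusted p = 0.0245). Here the counts were 4 lower and 2 higher by an unadjusted p under 0.05, and 5 lower and 1 higher by voom. Among dKO clones, with 17.1% of all genes called, 1 was lower, Gpt2 at -0.73 (limma adjusted p = 0.00989). The interaction called 2 genes above 0, Acss2 at 0.69 and Pcx at 0.65, and Gpt2 below, against 10.6% of all genes, and by voom 3 were above and 1 below. Pcx was 19.8 ± 0.300 FPKM in Jak2WT GLUT1/3 WT, 14.9 ± 1.53 in Jak2WT GLUT1/3 dKO, but 11.0 ± 0.114 in Jak2V617F GLUT1/3 WT and 13.4 ± 0.0188 in Jak2V617F GLUT1/3 dKO (mean ± SD, n = 2 each). Its dKO difference passed the threshold in Jak2WT (-0.39, limma adjusted p = 0.0274) and missed it in Jak2V617F (0.26, limma adjusted p = 0.0539). By voom the difference in Jak2V617F passed it, at 0.38 (adjusted p = 0.0145).

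Of the 10 genes of lipoic acid attachment, which builds a cofactor of the complex, all were tested. After the dKO in Jak2WT 1 rose by limma, Nfu1 at 0.36, against 13.7% of all genes called. In Jak2V617F 1 rose and 1 fell, Mecr at 0.35 and Lias, the lipoyl synthase, at -0.33, against 29.9% of all genes. The direction of these counts depended on the test. By voom 1 was higher and 1 lower in Jak2WT, and 4 were higher and 0 lower in Jak2V617F, with Mecr, Nfu1, Bola3 and Glrx5 at 0.30 to 0.56 and no call for Lias. By an unadjusted p under 0.05 the counts were 2 higher and 2 lower, and 4 higher and 1 lower. In Jak2V617F against Jak2WT, 2 were higher and 1 lower among GLUT1/3 WT clones, against 30.3% of all genes, and 3 were higher among dKO clones, against 17.1%. Glrx5, an iron-sulfur cluster protein that developing red cells also need, was higher by 0.58 and 0.79, beside the erythroid sums given above. Nfu1 was the other higher gene among GLUT1/3 WT clones, at 0.31, and Ndufab1 the lower one, at -0.45. Among dKO clones Mecr was higher by 0.46 and Iba57 by 0.45. By voom the counts between the backgrounds were 1 higher and 2 lower, and 3 higher and 0 lower. Slc19a2, a carrier gene for thiamine, the vitamin behind the cofactor of E1, was higher in Jak2V617F by 0.69 on the log2 scale among GLUT1/3 WT clones (SE 0.10, limma adjusted p = 0.00340) and by 0.72 among dKO clones (SE 0.10, limma adjusted p = 0.00482).

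The sister complexes, built like the pyruvate dehydrogenase complex for other keto acids, had calls in both directions. Of 6 tested genes of 7, 0 were called after the dKO in Jak2WT by limma, against 13.7% of all genes, with 2 lower by an unadjusted p under 0.05 and 1 lower by voom on the recovered reads. In Jak2V617F 1 rose and 1 fell, near the 29.9% of all genes called. The one that rose was Ogdh, of the 2-oxoglutarate dehydrogenase complex, at 0.36 (limma adjusted p = 0.0269), and the one that fell was Dbt, the E2 core of the branched-chain complex, at -0.69 (limma adjusted p = 0.00485). Both differed in their dKO effects between backgrounds, by 0.59 for Ogdh and -0.86 for Dbt (limma adjusted p = 0.0362 and 0.0226), where 10.6% of all genes were called. Among GLUT1/3 WT clones 2 were higher and 2 lower in Jak2V617F, against 30.3% of all genes tested. Ogdh was lower, at -0.55 (limma adjusted p = 0.00555), and Dbt higher, at 0.55 (limma adjusted p = 0.0116), each opposite in sign to its change after the dKO in Jak2V617F. Both comparisons use the Jak2V617F GLUT1/3 WT libraries, so opposite signs can arise from these libraries alone. Bckdha, an E1 subunit of the branched-chain complex, was higher in Jak2V617F by 0.42 among GLUT1/3 WT clones (limma adjusted p = 0.0398), and by voom it missed the threshold. Bckdk, the kinase of the branched-chain complex, was lower in Jak2V617F, at -0.41 among GLUT1/3 WT clones (limma adjusted p = 0.0163) and -0.52 among dKO clones (limma adjusted p = 0.0114).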

How the data were processed

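Poly(A) mRNA of 8 libraries, 2 single-cell clones in each of 4 groups, was sequenced. Per the labels and the submitters' processing notes, the authors trimmed with fastp (1.0.1), aligned with HISAT2 (2.2.1) and counted with featureCounts (2.0.6) on the mouse build mm39 (GRCm39) and deposited FPKM values, each gene's reads divided by a listed length and a library total. The annotation version, strand setting and total are not given in the sources used here. Columns were matched to samples by name, with 0 per-sample columns left unassigned. Every FPKM value gave a whole number of reads (tolerance 0.01 of a step).

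Genes with at least 1 FPKM in at least 2 libraries (11818) were fitted on log2(FPKM + 1) by limma (3.58.1, R 4.3.3), a scale that understates changes of low genes, with trended empirical Bayes over all 8 libraries, Benjamini-Hochberg adjustment and a threshold of 0.05. Fits were tested on simulated data. Floors of 3 reads cover counting error only. p-values measure the spread between the clones of a group, which may share a parent. Groups were compared in 18 alternative settings, among them 8 left-out libraries, a pseudocount of 0.1, no filter, other scalings and voom. The members, the 5 lists of related genes and the rule for naming genes were chosen with earlier results of these data known. Named were all members, all tested genes of the first list, the 2 largest called changes in each direction in the others, and the 5 genes most like each of the 3 members with the widest range. Some items are not reported here. Python 3.11.15 drew the figures.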

Additional observations from a re-analysis of the deposited data

Results flagged for a closer look

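The effect of the GLUT1/3 dKO on Pdk1 differed between the Jak2 backgrounds by -0.78 on the log2 scale (SE 0.13, limma adjusted p = 0.0171 over all genes tested). Pdk1 fell in both backgrounds, in all 4 dKO libraries, and further in Jak2V617F cells. The interaction was past the threshold in 13 of 17 alternatives and missed it without Jak2WT GLUT1/3 WT clone 1 or 3, Jak2WT GLUT1/3 dKO clone 1 or Jak2V617F GLUT1/3 WT clone 1, with limma adjusted p from 0.0526 to 0.0793.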

How the results depend on the processing

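Of 712 log2 fold changes of the 8 genes under alternative settings, 640 kept their direction and side of the threshold, 33 lost a call, 14 gained one and 25 changed sign. Genes called numbered 1 instead of 2 with no filter for the dKO in Jak2WT, 2 instead of 4 with only the compared groups for the dKO in Jak2V617F, and 1 instead of 2 with a pseudocount of 0.1, no filter or only the compared groups between dKO clones. Leaving out single libraries gave 1 to 2, 3 to 5, 1 to 4, 0 to 1 and 0 to 2 genes called in the order of the report, with 0 between dKO clones without Jak2WT GLUT1/3 dKO clone 1, where a lone clone was assumed to vary like the other groups. With the clone number as a replicate block the counts stayed 2, 4, 3, 2 and 1; same-numbered clones deviated from their group means with correlations of -0.25 to 0.15 over 6 pairs of groups, so the numbers were taken as names only.

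With libraries scaled to the same total, Mpc2 after the dKO in Jak2WT was -0.0252, Pdhb -0.14 and Pdp1 -0.0316 between GLUT1/3 WT clones, Pdk3 0.0248 between dKO clones and the Pdhb interaction 0.0215. By median ratio Pdhb was -0.000754 and Pdk3 0.0154, and by voom Pdhb was -0.0953, Pdp1 -0.0688 and Pdk3 0.0362 in the same comparisons. Without single libraries, signs changed after the dKO in Jak2WT for Pdha1 (-0.0739 to 0.0464), Pdp1 (-0.279 to 0.0287), Mpc1 (-0.0202 to 0.336) and Mpc2 (-0.0422 to 0.137), and in Jak2V617F for Mpc1 (-0.258 to 0.0317). They changed between GLUT1/3 WT clones for Pdhb (-0.0279 to 0.0494) and Pdp1 (-0.0752 to 0.233), and between dKO clones for Pdk3 (-0.151 to 0.125), Dlat (-0.257 to 0.00576) and Mpc1 (-0.14 to 0.15). None of these was past the threshold in the report. Scaling to the same total moved the median of all genes by -0.13 between GLUT1/3 WT clones and by 0.16 in the interaction, and turned the split of all higher and lower calls from 1812 and 1765 to 1223 and 2930 and from 558 and 698 to 1177 and 393. For the dKO it turned from 901 and 716 to 706 and 1378 in Jak2WT and from 1614 and 1919 to 2192 and 1452 in Jak2V617F.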
